A study of Mus musculus with 10 samples.

Results

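A set of 10 genes, out of 30142 measured, whose products carry ions and water across epithelia was followed in sorted luminal cells of the mouse prostate. They are the chloride channel subunit gene Gabrp, the calcium-activated chloride channel regulator Clca3a2, the chloride channels Cftr and Ano1, the 3 subunits of the epithelial sodium channel (Scnn1a, Scnn1b and Scnn1g), the calcium channel Trpv6, the sodium-potassium-chloride cotransporter Slc12a2 and the water channel Aqp5. Each was taken from the single row of the array table annotated with that gene symbol alone. The row of Clca3a2 carries the older symbol Clca2 and was named through its gene identifier, 80797. Gabrp and Clca3a2 were chosen by their higher values in castrated than in intact arrays, and Trpv6 by its lower values there, so these 3 genes are described without a test. The other 7 genes were tested, although the whole set was put together with earlier results of these data known.

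All mice were male and carried Hoxb13-rtTA and TetO-H2BGFP, transgenes that put a histone-bound green fluorescent protein under doxycycline control in cells with an active Hoxb13 promoter, and all drank doxycycline at 2 mg/ml for 1 week before collection. Intact mice (n = 3 arrays) were untreated. Castrated mice (n = 3) had both testes removed at 12 weeks of age and were left for 6 weeks of regression. Regenerated mice (n = 4) were castrated at the same age, left for the same 6 weeks and then carried subcutaneous testosterone implants for 4 weeks. The sources used here do not give the age of the intact mice at collection. No group was castrated for as long as the regenerated mice without testosterone, so time since castration and testosterone cannot be told apart. Cells were sorted for the reporter, for CD24 and for intermediate CD49f, leaving out cells with CD45, CD11b or a macrophage marker. The samples are labelled as biological replicates, but how many animals went into each is not stated. The p-values therefore cover the spread between samples, whatever its source.

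Secretory epithelia move chloride and other anions into the lumen through apical channels, and sodium and water follow. Chloride enters such cells from the blood side through the cotransporter encoded by Slc12a2, driven by the sodium gradient that the sodium-potassium pump maintains. The epithelial sodium channel works the other way and takes sodium back from the lumen. Trpv6 admits calcium from the lumen in epithelia that transport it, and prostatic fluid is known for its unusual ion content.

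Values are log2 RMA intensities. They compare the same gene between arrays and do not rank genes against each other, because probes differ in brightness. As a guide to the floor, 23 background control rows had a highest value between 4.66 and 6.40 per array. Gabrp, Ano1, Scnn1a, Scnn1b and Slc12a2 lay above that value on all 10 arrays, Trpv6 on 9 and Clca3a2 on 3, which were the castrated arrays. Cftr, Scnn1g and Aqp5 lay above it on 0 of 10.

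**Figure D1:**
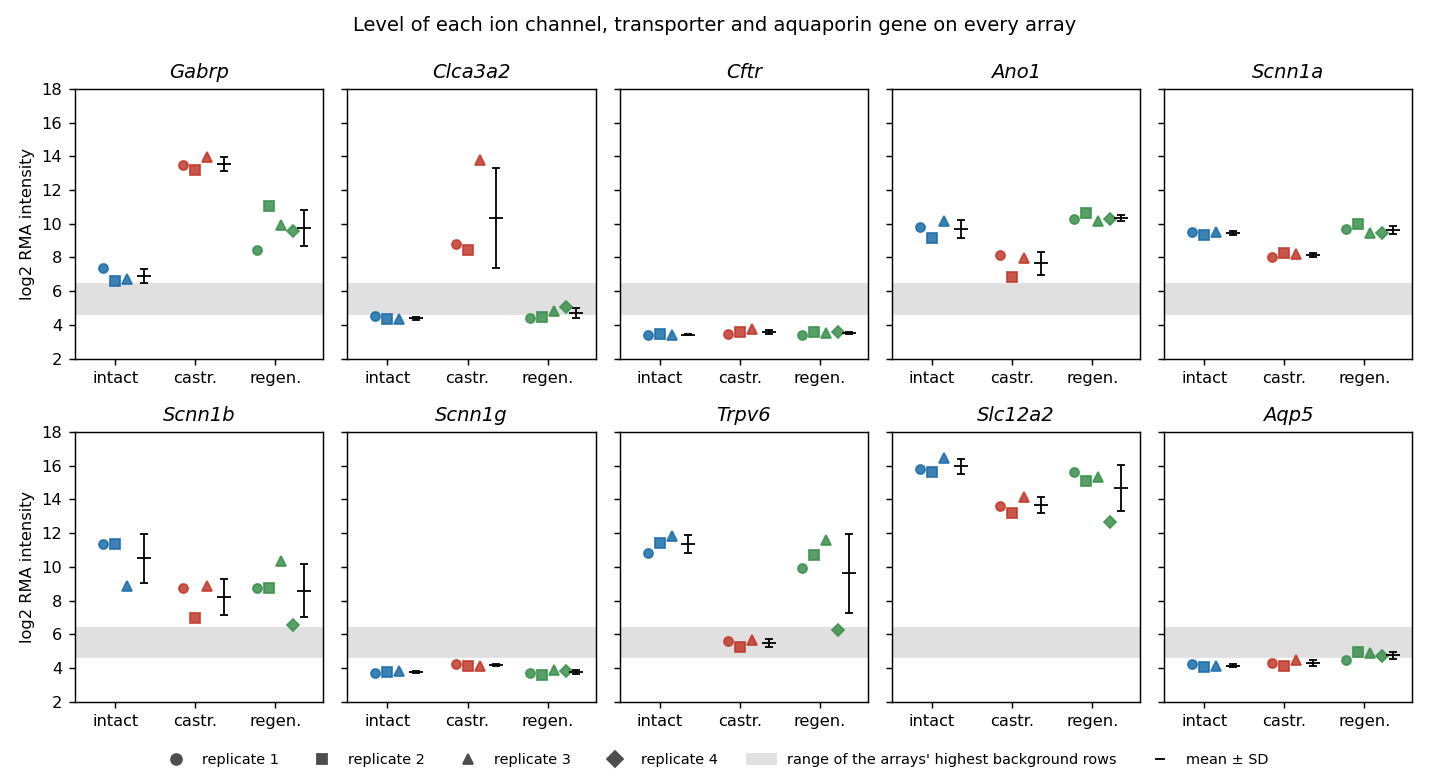
Log2 RMA intensity (y axis) of each of the 10 genes on every array, by group (x axis, n = 3 intact, 3 castrated and 4 regenerated), with the mean and SD beside the points and the range of the arrays' highest background rows, 4.66 to 6.40, in grey. Gabrp lies between 13.19 and 13.96 in castrated arrays and below that in all others, whereas Cftr, Scnn1g and Aqp5 stay within or below the grey band in every group.

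The sorted cells expressed luminal markers on all arrays, and 4 of 8 measured ones, Krt8, Krt18, Krt19 and Cd24a, rose in castrated arrays while Hoxb13, whose promoter drives the sorting reporter, fell by 2.65 ± 0.42 log2 (limma adjusted p = 0.00416). Over all genes 8.01% passed between castrated and intact arrays, 4.82% higher and 3.19% lower. The counts of markers called stand beside these shares. Markers of other cells also moved. Of 6 urothelial markers 2 rose in castrated arrays, Upk1b by 5.55 log2 (adjusted p = 0.000458) and Upk3a by 5.07 (adjusted p = 0.00115), and the mean log2 intensity of the 6 was 7.30 to 7.52 in intact, 9.22 to 9.85 in castrated and 7.87 to 8.30 in regenerated arrays. Their log2 summed intensity, most of it Upk1a, overlapped between the groups. It was 17.34 to 17.81 in intact, 17.59 to 18.45 in castrated and 16.85 to 18.50 in regenerated arrays. Of 7 proximal luminal markers Clu rose and Psca and Cldn10 fell. Their log2 summed intensity, led by Clu, was 12.56 to 12.93 in intact, 14.18 to 15.56 in castrated and 13.41 to 14.74 in regenerated arrays, whereas their mean log2 intensity overlapped between intact (9.10 to 9.36) and castrated arrays (8.90 to 9.55) and was 9.68 to 10.76 in regenerated ones. Of 9 basal markers Krt14 and Krt17 rose. The basal gene Krt15 had group means of 9.95, 11.14 and 12.48 in intact, castrated and regenerated arrays, and the basal factor gene Trp63 lay between 3.97 and 4.18. Of 10 myeloid markers Cd14, by 1.95 log2 (adjusted p = 0.00798), and Itgam rose, while the general leukocyte gene Ptprc had group means of 3.60 to 3.64. Itgam and Ptprc lay under the highest background row on every array. The log2 summed intensity of 9 stromal markers, most of it Dcn, was 11.46 to 12.79 in intact, 7.80 to 9.39 in castrated and 11.03 to 11.94 in regenerated arrays. Besides Dcn no stromal marker had a group mean above 4.35, and the median castrated minus intact difference of the 9 was 0.02 log2. The log2 summed intensity of 8 lymphocyte markers, led by Cd3e (castrated minus intact adjusted p = 0.0507), was 7.28 to 8.67, 8.79 to 11.81 and 7.34 to 8.12 in the same order. Besides Cd3e no lymphocyte marker had a group mean above 4.55, and the median castrated minus intact difference of the 8 was 0.02 log2. For 6 markers of ionocytes, a rare epithelial cell type rich in Cftr, the log2 summed intensity was 6.79 to 6.89, 7.23 to 7.28 and 6.88 to 7.98 in the same order, the last value in regenerated replicate 4, with Cftr itself under the highest background rows. Seminal vesicle genes varied most between arrays of a group, with sums from 7.26 to 17.43 among regenerated arrays. Sums of endothelial (6.35 to 6.82) and neuroendocrine markers (5.69 to 6.18) stayed low on all arrays. In such bulk samples fewer cells of a type and less RNA per cell cannot be told apart, and the part of these shifts in the values of the 10 genes was not tested.

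The promoters of Gabrp and Trpv6 are shown, since these genes, chosen for their direction, went opposite ways in the same bulk samples. Each sequence is the 250 bases before the annotated start in RefSeq (GRCm38.p6), read 5′ to 3′ on the strand of the gene. Capitals mark the 1 match found among 6 motifs searched on both strands.
Gabrp, chr11:33578958-33579207, minus strand: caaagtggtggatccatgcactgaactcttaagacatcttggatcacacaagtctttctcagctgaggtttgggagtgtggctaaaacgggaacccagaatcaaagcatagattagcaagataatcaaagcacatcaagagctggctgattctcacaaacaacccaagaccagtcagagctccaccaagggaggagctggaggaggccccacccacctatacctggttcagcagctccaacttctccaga
Trpv6, chr6:41636406-41636655, minus strand: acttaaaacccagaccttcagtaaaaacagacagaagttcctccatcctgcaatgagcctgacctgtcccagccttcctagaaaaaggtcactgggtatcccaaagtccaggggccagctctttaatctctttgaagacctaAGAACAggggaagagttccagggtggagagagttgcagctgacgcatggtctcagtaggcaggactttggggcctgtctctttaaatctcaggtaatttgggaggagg

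The match in the Trpv6 promoter, AGAACA, is the half-site of the androgen receptor's element and lies 108 to 103 bases before the start. It occurs in 16.1% of 32851 mouse promoter windows of this length. The full palindromic element, an inverted repeat of that half-site with a gap of 3 bases (0.0091% of windows), the TATA box TATAAA (12.4%), the forkhead core TGTTTAC (3.17%), the grainyhead motif AACCNGTT (1.79%) and the STAT motif TTCCNGGAA (0.913%) were in none of the 7 promoters of the set that were searched. The half-site overlaps the full palindrome by construction and was found in 1 of these 7, that of Trpv6. These matches describe the letters of these windows only. The promoters of Clca3a2, Scnn1a and Slc12a2 were not searched, so of the genes chosen for higher values in castrated arrays only Gabrp was covered.

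Gabrp encodes the pi subunit of the GABA-A receptor, a ligand-gated chloride channel, and is found in epithelia outside the nervous system. It stood at 7.36, 6.62 and 6.72 in intact arrays, at 13.48, 13.19 and 13.96 in castrated arrays, and at 8.44, 11.03, 9.91 and 9.56 in regenerated arrays. All castrated arrays were high, all intact arrays low, and all 4 regenerated arrays lay between the other groups without overlapping either. The mean was 6.90 ± 0.40 (SD, n = 3) in intact, 13.54 ± 0.39 (n = 3) in castrated and 9.73 ± 1.07 (n = 4) in regenerated arrays. Castrated arrays were 6.64 ± 0.54 log2 (SE) higher than intact arrays, which is 99.7-fold. Regenerated arrays were -3.81 ± 0.50 against castrated and 2.83 ± 0.50 against intact arrays. After 4 weeks of testosterone Gabrp was thus above the highest intact array on all 4 arrays, and 7.12-fold above the intact mean.

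Of 15 other measured GABA-A receptor subunit genes, none passed the test (limma) in any of the 3 comparisons, with 0 of 15 in each at an unadjusted p under 0.05, beside 20.7%, 18.9% and 10.02% of all genes for castrated minus intact, regenerated minus castrated and regenerated minus intact. Over all genes 8.01%, 4.98% and 0.0365% passed. Their median difference between castrated and intact arrays was 0.06 log2, against 0.04 over all genes. The largest difference belonged to Gabra4, at 4.23 ± 0.29 (SD, n = 3) in intact and 3.97 ± 0.05 (n = 3) in castrated arrays (limma adjusted p = 0.446), followed by Gabre at 3.52 ± 0.05 and 3.74 ± 0.18 (adjusted p = 0.249). Both lay under the range of the highest background rows. On no array did any of the 15 genes exceed that array's own highest background row, and their highest value was 4.66 (Gabrr2, castrated). At this level a change could hardly be detected, so the 0 of 15 says little about whether these genes changed.

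Clca3a2 belongs to a family of secreted and membrane proteins that modulate calcium-activated chloride channels. Intact arrays read 4.51, 4.34 and 4.34, castrated arrays 8.81, 8.43 and 13.77, and regenerated arrays 4.41, 4.48, 4.85 and 5.07. Castrated replicate 3 was far above the other castrated arrays, and even the lowest castrated array was above every other array. Intact and regenerated arrays overlapped, and none of these 7 arrays exceeded its own highest background row. The means were 4.40 ± 0.10 (SD, n = 3), 10.34 ± 2.98 (n = 3) and 4.70 ± 0.31 (n = 4). The fitted difference between castrated and intact arrays was 5.94 ± 1.08 log2 (SE), and 4.23 without castrated replicate 3. Set against the highest background row of each intact array where that exceeded the gene's own value, Clca3a2 was at least 37.8-fold higher in castrated arrays, and at least 34.3-fold higher than in regenerated arrays by the same measure. Without castrated replicate 3 these bounds were 11.5-fold and 10.5-fold, and the fitted difference between regenerated and castrated arrays went from -5.64 to -3.92.

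Clca3a1 and Clca3b lie on either side of Clca3a2 on chromosome 3 among protein-coding genes. Clca3a1 read 4.06, 4.04 and 3.99 in intact, 6.64, 6.27 and 10.08 in castrated, and 3.95, 4.01, 4.08 and 4.65 in regenerated arrays. Castrated replicate 3 was again the highest. It rose by 3.63 ± 0.77 log2 in castrated arrays (limma adjusted p = 0.0169) and fell by 3.49 ± 0.72 after testosterone (adjusted p = 0.021). The first call ended without intact replicate 1 (adjusted p = 0.0653) or 2 (0.0595) and the second without regenerated replicate 2 (0.0599) or 3 (0.0545), and both ended with only the 2 groups compared in the fit (0.0509 and 0.063). Clca3b, named after its values were seen, read 4.60, 4.99 and 7.92 in castrated arrays and 3.68 to 3.84 in all others (castrated minus intact 2.15 ± 0.65 log2, adjusted p = 0.0748). It exceeded the highest background row only on castrated replicate 3, and Clca3a1 did so only on the castrated arrays. Clca1 stood at 5.03 ± 0.36 (SD, n = 3) in intact and 5.46 ± 0.55 (n = 3) in castrated arrays, and Clca2, Clca4a and Clca4b lay between 3.34 and 3.98 on all arrays. The 3 neighbours are close copies, and whether probes of one row also bind transcripts of another was not tested.

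Ano1 encodes a calcium-activated chloride channel of secretory epithelia. Its values were 9.78, 9.14 and 10.17 in intact, 8.14, 6.86 and 7.95 in castrated, and 10.25, 10.61, 10.17 and 10.29 in regenerated arrays. Every castrated array lay below every other array, and intact and regenerated arrays overlapped. Ano1 fell by 2.05 ± 0.36 log2 in castrated arrays (4.13-fold, limma adjusted p = 0.00747) and rose by 2.68 ± 0.34 in regenerated over castrated arrays (6.41-fold, adjusted p = 0.00164). Regenerated minus intact was 0.63 ± 0.34, with a 95% interval from -0.12 to 1.39 (adjusted p = 0.597). Both calls held with each of the 10 arrays left out in turn. Cftr, the cyclic AMP-gated chloride channel, lay between 3.37 and 3.72 on all arrays, under every highest background row. Castrated minus intact was 0.17 log2 with a 95% interval from -0.0028 to 0.34 (adjusted p = 0.251), so no difference was detectable at this level.

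Scnn1a encodes the alpha subunit, which forms the epithelial sodium channel's pore together with beta and gamma. It read 9.52, 9.33 and 9.49 in intact, 8.03, 8.25 and 8.18 in castrated, and 9.66, 9.96, 9.46 and 9.48 in regenerated arrays. The castrated arrays lay below all others by more than 1 log2, the spread within each group was small, and intact and regenerated arrays overlapped. Scnn1a fell by 1.29 ± 0.21 log2 in castrated arrays (2.45-fold, limma adjusted p = 0.00418) and rose by 1.48 ± 0.19 after testosterone (2.80-fold, adjusted p = 0.00184), and both calls held with each of the 10 arrays left out in turn. Regenerated minus intact was 0.19 ± 0.19, with a 95% interval from -0.23 to 0.62.

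Scnn1b, the beta subunit gene, varied within every group. It read 11.35, 11.35 and 8.84 in intact, 8.75, 6.98 and 8.87 in castrated, and 8.73, 8.76, 10.34 and 6.53 in regenerated arrays. Intact replicate 3 lay at the level of the castrated arrays, so the groups overlapped. Castrated minus intact was -2.31 ± 0.95 log2 (limma adjusted p = 0.193), with a 95% interval from -4.43 to -0.20. Regenerated minus castrated was 0.39 ± 0.89 (adjusted p = 0.87), and it turned to -0.22 without castrated replicate 2 and to -0.19 without regenerated replicate 3. Scnn1g, the gamma subunit gene and the neighbour of Scnn1b on chromosome 7, read 3.69, 3.77 and 3.81 in intact, 4.22, 4.11 and 4.14 in castrated, and 3.70, 3.60, 3.90 and 3.80 in regenerated arrays. Its castrated arrays were above all others, yet no array exceeded its highest background row. Scnn1g rose by 0.40 ± 0.09 log2 in castrated arrays (adjusted p = 0.0176) and fell by 0.41 ± 0.08 in regenerated ones (adjusted p = 0.017). The rise lost its call without intact replicate 1 (adjusted p = 0.0829), intact replicate 2 (0.0622) or castrated replicate 1 (0.0567), and the fall without castrated replicate 1 (0.0605) or with only the 2 groups compared in the fit (0.0536).

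Trpv6, a calcium-selective channel of transporting epithelia, read 10.82, 11.43 and 11.83 in intact and 5.59, 5.24 and 5.65 in castrated arrays. The regenerated arrays read 9.93, 10.73, 11.59 and 6.23. Replicates 1 to 3 were near or within the intact range, whereas replicate 4 was close to the castrated arrays. The means were 11.36 ± 0.51 (SD, n = 3), 5.49 ± 0.22 (n = 3) and 9.62 ± 2.36 (n = 4). Castrated arrays were -5.87 ± 1.06 log2 (SE) against intact arrays, a 58.4-fold difference, with 1 of the 3 castrated arrays at or under its highest background row. Regenerated arrays were 4.13 ± 0.995 above castrated arrays, and 5.26 without regenerated replicate 4. Regenerated minus intact was -1.74 ± 0.995, and -0.61 without that replicate. Gabrp stayed above intact on all regenerated arrays. For Trpv6 only regenerated replicate 3 (11.59) lay within the intact range, and the other regenerated arrays lay below it. Clca3a2 overlapped between intact and regenerated arrays, but under the highest background rows in both groups.

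Slc12a2 encodes the cotransporter that loads secretory cells with chloride. It read 15.79, 15.64 and 16.45 in intact, 13.62, 13.22 and 14.15 in castrated, and 15.62, 15.07, 15.35 and 12.65 in regenerated arrays. Intact and castrated arrays did not overlap, and regenerated replicate 4 was the lowest of all 10 arrays. Castrated minus intact was -2.30 ± 0.65 log2 (limma adjusted p = 0.059), and regenerated minus castrated was 1.01 ± 0.61 (adjusted p = 0.421), so neither passed. Without regenerated replicate 4, which sets much of the common spread of this gene, the differences were -2.30 ± 0.28 (adjusted p = 0.00103) and 1.69 ± 0.28 (adjusted p = 0.00723), and both passed. Regenerated minus intact was -1.29 ± 0.61 with all arrays and -0.62 without that replicate (adjusted p = 0.532 and 0.529), and all 4 regenerated arrays lay below the lowest intact array. Aqp5, an apical water channel of glands, read 4.04 to 4.26 in intact, 4.12 to 4.45 in castrated and 4.48 to 4.95 in regenerated arrays. These levels were under the highest background row on each array. Regenerated minus castrated was 0.47 ± 0.13 (adjusted p = 0.0637), and 0.56 without regenerated replicate 1 (adjusted p = 0.0266). Regenerated minus intact was 0.61 ± 0.13 (adjusted p = 0.21).

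**Figure D2:**
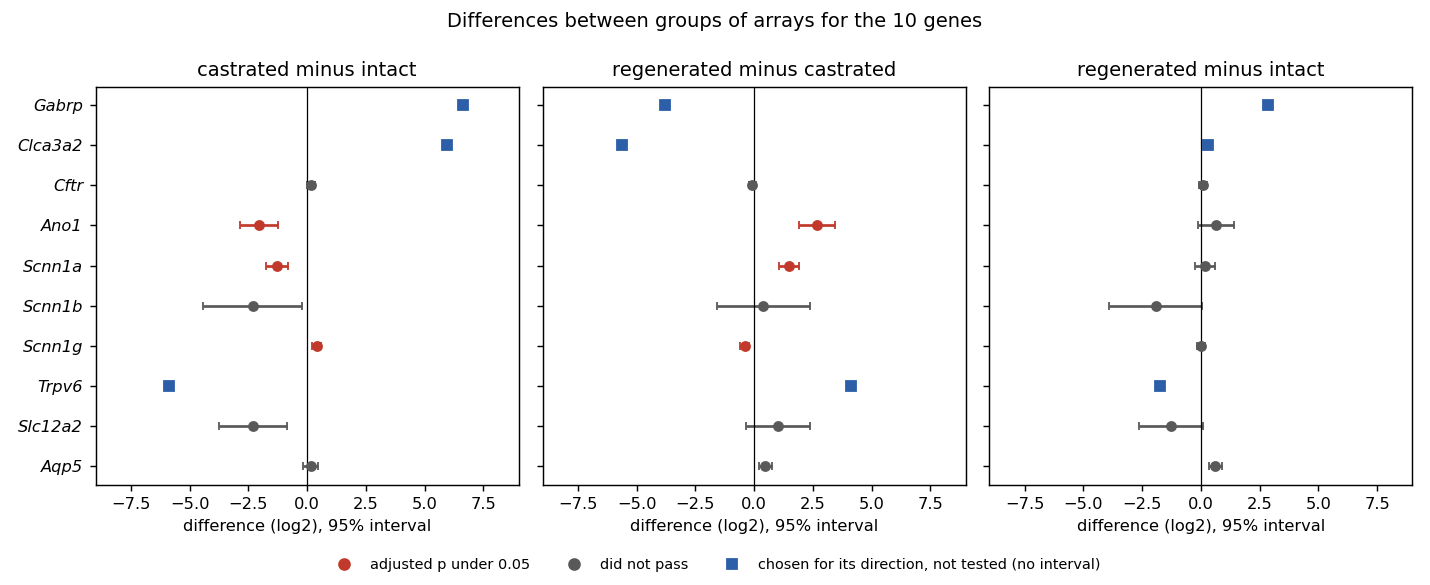
Fitted difference in log2 intensity (x axis) for each of the 10 genes (y axis) in the 3 comparisons, with the 95% interval of the 7 tested genes. Ano1 and Scnn1a lie left of 0 in castrated minus intact and right of 0 in regenerated minus castrated. The 3 untested genes are squares without an interval, with Gabrp at 2.83 in regenerated minus intact.

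Counted together, 3 of the 7 tested genes passed between castrated and intact arrays, where 8.01% of all 30142 genes did. Ano1 and Scnn1a fell (2 of 7, beside 3.19% of all genes), and Scnn1g rose at background level (1 of 7, beside 4.82%). The median difference of the 7 was -1.29 log2, against 0.04 over all genes. The groups did not overlap for 4 of these 7, and for 28.9% of all genes. Between regenerated and castrated arrays the same 3 genes passed in the opposite direction (4.98% of all genes passed, 1.97% higher and 3.01% lower), and the groups did not overlap for 4 of 7 (16% of all genes). These 2 comparisons share the castrated arrays. Between regenerated and intact arrays 0 of the 7 passed, by limma with Benjamini-Hochberg adjustment, and 1, Aqp5, had an unadjusted p under 0.05, as did 10.02% of all genes. Over all genes 0.0365% passed in that comparison, 0.0332% higher and 0.00332% lower. The groups did not overlap for 2 of the 7, Slc12a2 and Aqp5, and for 9.65% of all genes. Over all genes 60.1% of the calls between castrated and intact arrays were higher in castrated arrays, a share of 47.8% with array medians subtracted and 50.6% after quantile normalization. No member changed its direction between castrated and intact arrays under either of these scalings.

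Regenerated replicate 4 stood apart from the other regenerated arrays in some of these genes and not in others. It was the lowest regenerated array for Trpv6 (6.23 against 9.93 to 11.59), Slc12a2 (12.65 against 15.07 to 15.62) and Scnn1b (6.53 against 8.73 to 10.34). For Ano1 (10.29) and Scnn1a (9.48) it lay within the range of the other 3 arrays, 10.17 to 10.61 and 9.46 to 9.96. For Gabrp (9.56) it was also within their range, 8.44 to 11.03. Over all genes, this array lay at 3.03 on the first principal component (44.3% of the variance), whereas the other regenerated arrays lay between -31.0 and -23.2, the intact arrays between -47.6 and -40.5 and the castrated arrays between 64.1 and 75.5. Hoxb13 read 8.26 on it, against 9.61 to 10.27 on the other regenerated, 10.19 to 10.54 on the intact and 7.54 to 7.93 on the castrated arrays. The part of these shifts in the values of Trpv6, Slc12a2 and Scnn1b was not tested.

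**Figure D3:**
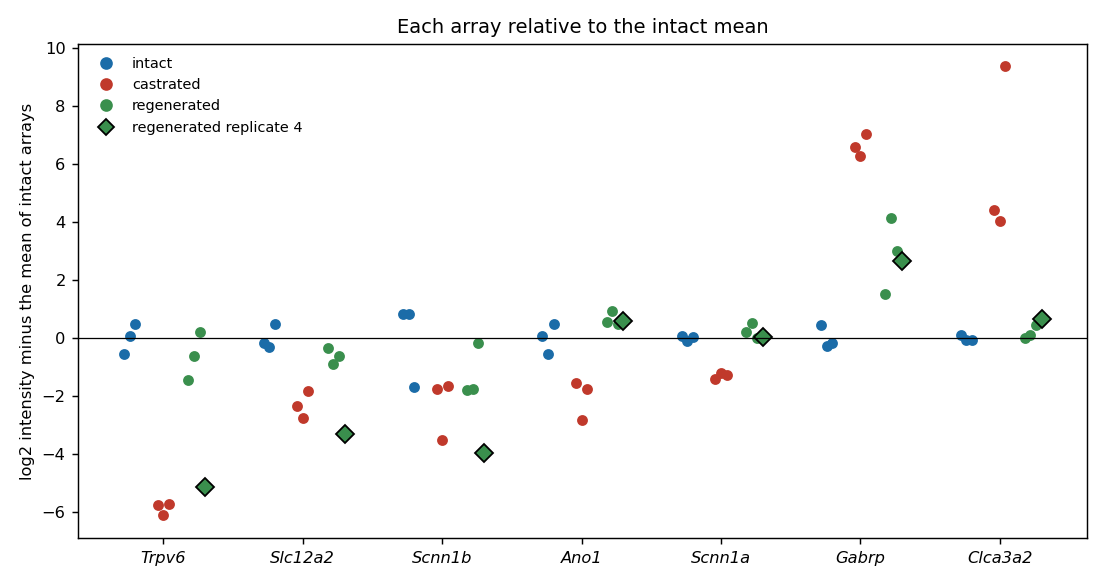
Log2 intensity of 7 genes (x axis) on each array minus the mean of the intact arrays (y axis), with regenerated replicate 4 as an outlined diamond. That array sits at or near the castrated arrays for Trpv6, Slc12a2 and Scnn1b, and among the other regenerated arrays for Ano1, Scnn1a and Gabrp.

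The genes whose pattern over the 10 arrays was most like that of Gabrp, among 2326 genes whose group means spanned at least 1 log2, were Plk2, a kinase gene (Pearson r = 0.980), Cyba, a subunit of NADPH oxidase (0.979), the lipoxygenase gene Alox12 (0.978), the lipase-related gene Pnliprp1 (0.978) and Ift43, a gene of ciliary transport (0.973). Alox12, for example, had means of 6.74, 14.31 and 10.04 in intact, castrated and regenerated arrays. Those most like Clca3a2 were its neighbour Clca3a1 (r = 0.997), Dkkl1 (0.993), Phf11b (0.973), Tnip3 (0.971) and Osmr, the oncostatin M receptor gene (0.970). Those most like Trpv6 were Eif4ebp1, a repressor of translation initiation (r = 0.990), Ano10, a relative of Ano1 (0.989), Agpat3 (0.985), Acy1 (0.985) and Tmem139 (0.982). Tmem139 had means of 13.35, 8.68 and 12.19. These coefficients describe 10 arrays in 3 groups, so the group differences make up most of them.

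Beyond the 10 genes, 133 other genes of ion and water transport were measured in 9 lists. Of these, 10 rose and 11 fell between intact and castrated arrays, or 15.8%, beside the 8.01% of all genes. Between castrated and regenerated arrays 9 rose and 9 fell, or 13.5%, beside 4.98%. None passed between regenerated and intact arrays, where 20 (15.04%) had an unadjusted p under 0.05, beside 10.02% of all genes. The median difference between castrated and intact arrays of the other genes of a list lay between -0.09 and 0.24.

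Among 28 other anion channels and exchangers 2 rose and 4 fell in castrated arrays (median -0.08), a share of 21.4% beside the 8.01% of all genes called. Slc26a4, the anion exchanger pendrin, stood at 11.43 ± 0.70 (SD, n = 3) in intact and 4.95 ± 0.38 (n = 3) in castrated arrays, a fall of 6.47 ± 0.78 log2 (SE, limma adjusted p = 0.000973), and rose by 4.42 ± 0.73 after testosterone (adjusted p = 0.00694). Its regenerated arrays read 10.88, 9.29, 10.15 and 7.14, with replicate 4 the lowest. Castrated replicate 3 (4.53) lay under its highest background row (6.40), and the other castrated arrays were near theirs. Clic5, an intracellular channel protein that binds the cytoskeleton, rose by 3.30 ± 0.60 in castrated arrays (adjusted p = 0.00856). Ano6, a phospholipid scramblase and channel, fell by 2.34 ± 0.46 (adjusted p = 0.0117), a call that ended without intact replicate 1 (0.051).

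Of 14 other genes around the sodium channel 1 rose and 1 fell in castrated arrays (median -0.05), a share of 14.3% beside the 8.01% of all genes called. Atp1b1, the beta subunit of the sodium-potassium pump, fell by 2.32 ± 0.24 log2 (limma adjusted p = 0.000386) and rose by 1.86 ± 0.22 after testosterone (adjusted p = 0.00115). Nedd4l, a ubiquitin ligase that removes the sodium channel from the membrane, rose by 1.59 ± 0.29 (adjusted p = 0.00814) and fell by 1.60 ± 0.27 after testosterone (adjusted p = 0.0075). In the same castrated arrays Scnn1a fell. All 4 calls held with each array left out in turn. Of 13 other genes around the chloride cotransporters 1 rose and 1 fell in castrated arrays, a share of 15.4% beside the same 8.01%. Wnk2, a kinase of the family that regulates them, fell by 3.48 ± 0.48 (adjusted p = 0.00198) and rose by 2.63 ± 0.45 (adjusted p = 0.00844) after testosterone. Slc12a7, a potassium-chloride cotransporter, rose by 0.51 ± 0.12 in castrated arrays (adjusted p = 0.0307). That call ended without any of 5 arrays (intact replicate 1 or 2, or castrated replicate 1, 2 or 3), with adjusted p up to 0.136.

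Of 18 other genes of calcium transport 2 fell in castrated arrays and none rose (median -0.09), a share of 11.1% beside the 8.01% of all genes called. Atp2c2, a calcium pump of the secretory pathway, stood at 10.55 ± 0.40 (SD, n = 3) in intact and 6.14 ± 0.38 (n = 3) in castrated arrays, a fall of 4.41 ± 0.82 log2 (SE, limma adjusted p = 0.00928). Castrated replicate 3 (5.78) lay under its highest background row (6.40). The regenerated arrays of Atp2c2 read 10.56, 9.21, 9.77 and 6.45, so that replicate 4 again lay at the castrated level. The rise of the group was 2.85 ± 0.77 (adjusted p = 0.0636) with that array and 3.70 (adjusted p = 0.000387) without it. Stim1, the calcium sensor of the endoplasmic reticulum, fell by 2.31 ± 0.38 in castrated arrays (adjusted p = 0.00524). Trpv5, the closest relative of Trpv6 and its neighbour on chromosome 6, stood at 4.75 ± 0.02 (SD, n = 3) in intact and 4.54 ± 0.05 (n = 3) in castrated arrays (adjusted p = 0.305). It lay under the highest background row on all castrated arrays and on intact replicates 1 and 2. At this level a change of Trpv5 could hardly be detected.

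Among 15 genes of proton and bicarbonate handling 3 rose and 1 fell in castrated arrays (median 0.10), a share of 26.7% beside the 8.01% of all genes called. Car2, a cytosolic carbonic anhydrase, read 5.23, 4.97 and 5.54 in intact, 11.49, 8.88 and 11.30 in castrated, and 5.26, 6.55, 5.91 and 8.19 in regenerated arrays. It rose by 5.31 ± 0.78 log2 (limma adjusted p = 0.00248) and fell by 4.08 ± 0.73 after testosterone (adjusted p = 0.00994). Intact replicates 1 and 2 lay under their highest background rows (5.53 and 5.09), which limits how well the size of the rise could be measured. Car13, another cytosolic carbonic anhydrase, rose by 2.86 ± 0.34 (adjusted p = 0.000973), with intact replicate 1 (5.27) also under that row. Slc9a2, a sodium-proton exchanger, fell by 4.58 ± 0.69 (adjusted p = 0.00297). Of 10 other aquaporins 1 fell, a share of 10%, near the 8.01% of all genes called. It was Aqp11, lower by 3.40 ± 0.75 (limma adjusted p = 0.0199), and all its castrated arrays lay under their highest background rows. That call ended without intact replicate 1 or 2 or castrated replicate 1 or 2, with adjusted p up to 0.0834. Of 14 epithelial potassium channel genes 2 rose and 1 fell, a share of 21.4% beside the same 8.01%. Kcnk1 was 1.70 ± 0.37 lower (adjusted p = 0.0181), Kcnk5 1.66 ± 0.38 higher (0.0241) and Kcnk6 0.62 ± 0.16 higher (0.0345). Each of these 3 calls ended without intact replicate 1 (adjusted p = 0.0885, 0.0563 and 0.15) or intact replicate 2, and without castrated replicate 1. Kcnk5 also lost it without intact replicate 3 or castrated replicate 3, Kcnk1 without castrated replicate 2, and Kcnk6 without castrated replicate 2 or 3 or regenerated replicate 3.

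**Figure D4:**
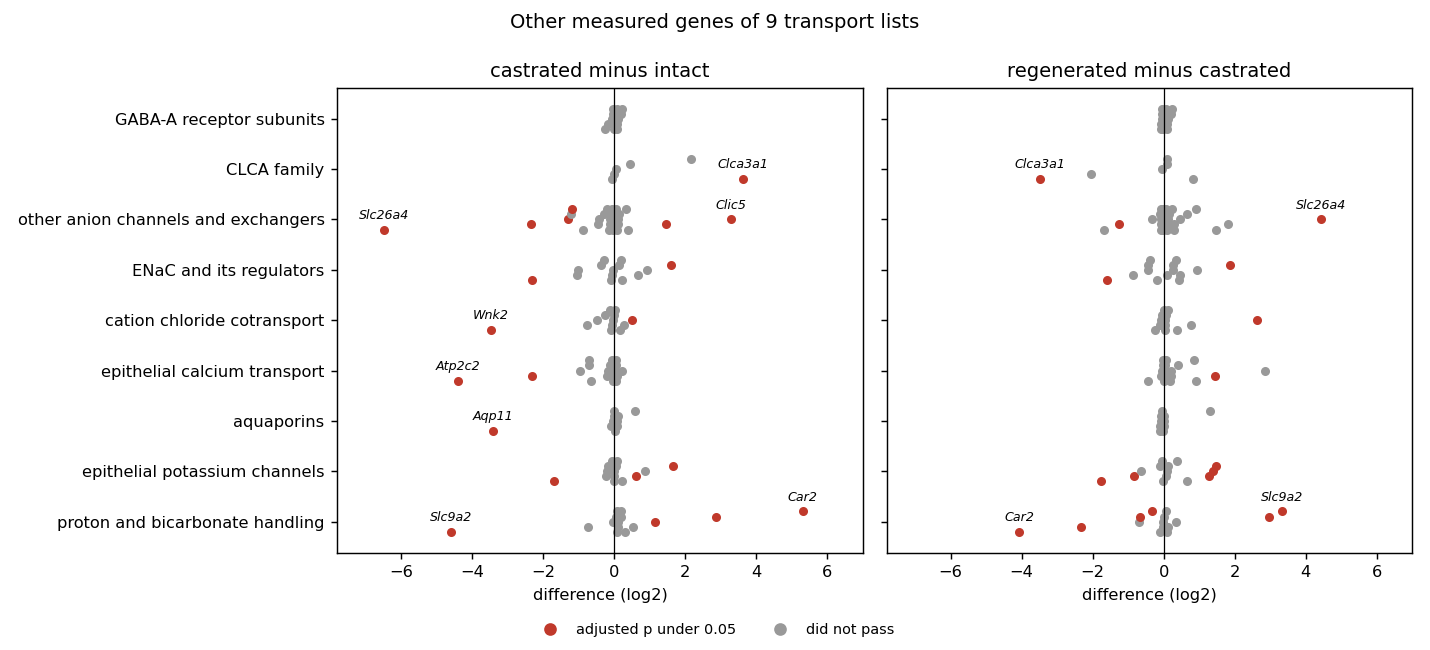
Difference in log2 intensity (x axis) of each other measured gene in 9 transport lists (y axis), for castrated minus intact and regenerated minus castrated arrays, with genes at an adjusted p under 0.05 in red and names for called genes beyond 3 log2. Most genes of every list lie near 0, with Slc26a4, Slc9a2 and Atp2c2 far to the left and Car2, Clca3a1 and Clic5 to the right in castrated minus intact.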

How the data were processed

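RNA of 10 sorted samples was hybridised to Affymetrix ClariomD (MTA-1.0) arrays, 1 array per sample. The deposited log2 values were made with RMA, and the submitters' processing notes also name Affymetrix Expression Console, without versions. RMA forces the arrays to a similar distribution, which reduces changes shared by all transcripts. No build is named for the array table, and the promoter coordinates are those of the RefSeq table. Arrays have no sequencing depth, and their number limits the precision.

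Of 65956 non-control rows, 30604 had 1 gene symbol, and 827 symbols were updated by gene identifier against a RefSeq table of GRCm38.p6. For 355 genes with several rows the highest mean was used, which left 30142 genes. Each of the 10 genes had 1 row. The limma package 3.58.1 (R 4.3.3; lmFit, then eBayes with a trend) fitted all genes in 1 model of 3 groups with 7 residual degrees of freedom. Tests were two-sided, and adjusted p-values are Benjamini-Hochberg values over all genes, with a threshold of 0.05. The fit was first tested on simulated data. SE and 95% intervals come from the same fit.

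The members, lists and the direction of 3 members were chosen with earlier results of these data known. From each list, up to 3 called genes with the largest castrated minus intact change are named (2 where none passed), and for likeness the 5 highest correlations. Same-numbered replicates of different groups correlated between -0.16 and 0.26 in their deviations from the group mean, so the numbers were not taken to pair samples. The alternatives comprised eBayes settings, array weights, a 2-group fit, a filter, row choice, scaling, a replicate block, a least change of 1 log2 and leaving out each array.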

Additional observations from a re-analysis of the deposited data

How the results depend on the processing

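The differences of the 7 tested genes between castrated and intact arrays kept their direction under every alternative tried. Only array weights, the scalings and leaving out an intact or castrated array could change these estimates. The other alternatives left them as they were by construction. Gabrp, Clca3a2 and Trpv6 were chosen for their direction and are left out of this statement. The counts moved more. Between castrated and intact arrays, 2414 genes and 3 of the 7 tested members were called. Array weights gave 4258 genes and 5 members, and a least change of 1 log2 gave 216 genes and 0 members. Leaving out 1 array gave 1019 to 3271 genes and 2 to 4 members. Between regenerated and castrated arrays, 1500 genes and 3 members were called, 822 genes and 2 members with only the 2 groups compared, 155 genes and 0 members with a least change of 1 log2, and 816 to 2127 genes and 2 to 4 members with 1 array left out. Between regenerated and intact arrays 11 genes were called, 2 without the trend, 70 with array weights, 0 with only the 2 groups, 24 above the median, 3 with array medians subtracted, 1 after quantile normalization, 4 with the replicate block, 0 with a least change of 1 log2, and 0 to 78 with 1 array left out, and 0 members in each case. With the replicate number as a block, 2715 and 1637 genes were called in the first 2 comparisons, and Slc12a2 passed in both (adjusted p = 0.0014 and 0.00625), since regenerated replicate 4 then has a block of its own. Scnn1b passed with array weights (adjusted p = 0.0257). Slc12a2 also passed between castrated and intact arrays with array weights (adjusted p = 0.00538), with only the 2 groups (0.00498), with genes above the median (0.0328) and after quantile normalization (0.0356).

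Values of 3 genes changed sign, none of them called. Scnn1b, regenerated minus castrated, ranged from -0.22 to 1.08 with 1 array left out. Scnn1g, regenerated minus intact, was 0.0105 with array weights and ranged from -0.0546 to 0.0466 with 1 array left out. Gabre, regenerated minus castrated, ranged from -0.16 to 0.0085 with 1 array left out. The cause was not tested. The least fold of Clca3a2 without castrated replicate 3, given with its values above, was added after seeing the data. Aqp5, regenerated minus castrated, passed with array weights (adjusted p = 0.0385), with genes above the median (0.0456) and under both scalings (0.0474). Cftr, Scnn1g and Aqp5 lie under the highest background rows, which limits what could be measured for them.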
